A study of Mus musculus with 18 samples.

Results

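Microglia, the resident macrophages of the brain, were compared with astrocytes, the glial cells that surround synapses and vessels, within the same WT brains. The comparison used 8 of the 18 libraries of the study, 4 of microglia and 4 of astrocytes, chosen as the libraries of the WT genotype in the 2 raw count tables. Each of the 4 mice gave 1 library of each cell type, and the mouse number in the library names pairs them. The mice were untreated C57BL/6j animals of the WT genotype, replicate 1 female and replicates 2 to 4 male, and every library name of the study carries C3WT, so no C3-deficient animal entered. The other 10 libraries came from 5 untreated C57BL/6j mice, 4 female and 1 male, labelled APP_NLGF/NLGF (here APP), a knock-in of mutant App, and served only to ask which WT differences had another size there. Whole brains of perfused mice had been dissociated with enzymes, freed of myelin and sorted by flow cytometry. The labels name neither the sort antibodies nor the ages of the mice.

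Microglia derive from yolk sac macrophages, depend on signals through the colony stimulating factor 1 receptor and on TGF-beta, and survey the tissue for damage and debris. Astrocytes derive from the neuroepithelium, take up glutamate and potassium, hold glycogen, make cholesterol and lipoproteins, and cover vessels with endfeet. Signals are known to pass between them, with the ligand made by one cell and the receptor carried by the other.

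Total counts were 8834866 to 11700620 per microglia library and 10569776 to 21865752 per astrocyte library, and 15379 to 16287 and 16200 to 17208 genes had at least 1 count. The ribosomal RNA gene Rn45s took 5.74% to 9.76% of the counts in microglia and 2.84% to 12.5% in astrocytes. Levels are given as CPM, the count per unit of a library total adjusted by TMM scaling, in the order of replicates 1, 2, 3 and 4. Differences are on the log2 scale, microglia minus astrocytes, from a fit with the mouse as a block. Their standard error (SE) is approximate, the size of the difference over the square root of the F statistic of the test below. It does not bound the difference where the astrocyte counts are few. A gene differed when its adjusted p was under 0.05 in edgeR's quasi-likelihood test, and it differed by more than 2-fold when it also passed a test against that size. The p-values rest on how much the difference between the cell types varied over the 4 mice, not on the spread of levels between mice.

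The 4 defining markers followed the labels in every library. Tmem119 (chr5:113793729-113800396, GRCm38.p6), a membrane protein of resident microglia, stood at 2662, 2605, 3025 and 3351 CPM in microglia and 8.54, 13.5, 18.5 and 11.5 CPM in astrocytes (log2 difference 7.84, SE 0.28, adjusted p = 9e-06). P2ry12 (chr3:59216271-59262985), the ADP receptor that directs microglial processes to injury, was at 3127, 2671, 3189 and 4002 CPM in microglia and 11.5, 15.0, 11.7 and 12.3 CPM in astrocytes (log2 difference 8.0, SE 0.25, adjusted p = 8e-06). Aldh1l1 (chr6:90550768-90599171), a folate enzyme used to mark astrocytes, stood at 7.17, 19.5, 16.9 and 10.2 CPM in microglia and 478, 337, 335 and 472 CPM in astrocytes (log2 difference -4.97, SE 0.40, adjusted p = 9.3e-05). Slc1a3 (chr15:8634124-8710807), the glutamate transporter GLAST, was at 245, 389.6, 312 and 261 CPM in microglia and 6273, 4224, 4282 and 5519.6 CPM in astrocytes (log2 difference -4.07, SE 0.29, adjusted p = 6e-05). Gfap, the filament protein of astrocytes, was at 4.09, 7.88, 8.36 and 2.43 CPM in microglia and 92.2, 117, 119 and 102 CPM in astrocytes (log2 difference -4.33, SE 0.28, adjusted p = 4.5e-05). No library of one type overlapped a library of the other for any of these genes. All 14 microglial markers and all 16 astrocyte markers of the lists differed by more than 2-fold in the direction of their name, with medians of 9.53 and -5.18.

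**Figure D1:**
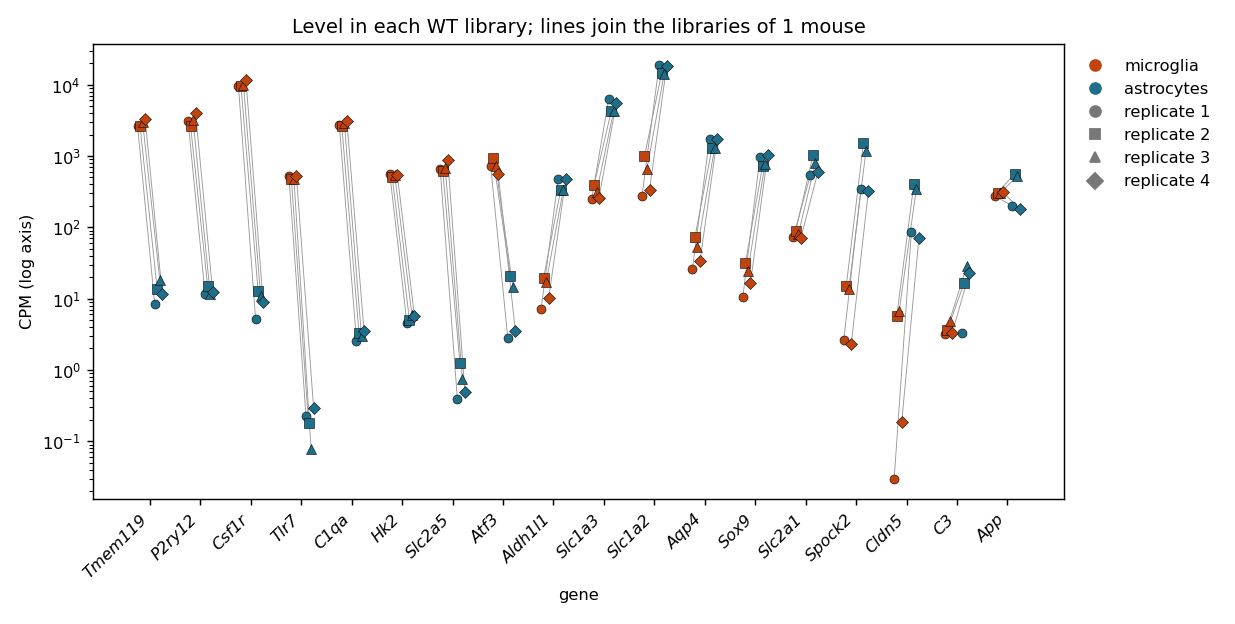
Level of 18 genes in each of the 8 WT libraries (y axis, CPM on a log axis), with microglia in orange, astrocytes in blue, one marker shape per replicate and a line joining the libraries of a mouse; the Cldn5 level of 0 in microglia replicate 1 is drawn at 0.03. Microglial genes such as Tmem119 lie close together in the 4 microglia libraries, while astrocyte genes such as Aldh1l1 in microglia are lowest in replicates 1 and 4 and highest in replicates 2 and 3.

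Replicates 1 and 4 stood apart from replicates 2 and 3 in both cell types. The first principal component held 92.6% of the variance and separated the cell types. The second held 3.44% and put replicates 1 and 4 of both types on its positive side (14.5 to 44.2) and replicates 2 and 3 on its negative side (-33.5 to -24.6). Summed over the 16 astrocyte markers, the microglia library held 1.55%, 6.32%, 4.61% and 2.09% of the level in the astrocyte library of the same mouse, in the order of replicates. The reverse share, the 14 microglial markers in astrocyte libraries, was 0.606%, 0.675%, 0.583% and 0.534% of the microglial level, and this sum did not follow the split. For the median microglial marker the share was 0.0830%, 0.200%, 0.141% and 0.1104%, highest in replicates 2 and 3. The endothelial markers summed to 533 to 3859 CPM in astrocyte libraries with a median of 1859, and Flt1, a VEGF receptor of endothelial cells, stood at 1.93, 10.4, 11.9 and 2.53 CPM in microglia and 115, 825, 647 and 100.0 CPM in astrocytes. Libraries 2 and 3 were thus the high ones in astrocytes, by several fold, and also the higher ones in microglia. Differences are therefore also given from mice 1 and 4 alone and from mice 2 and 3 alone where they matter.

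Of the 14114 genes tested, 11084 differed (78.5%), 5431 of them higher in microglia (38.5%) and 5653 higher in astrocytes (40.1%). By more than 2-fold, 6478 genes differed (45.9%), 2641 higher in microglia (18.7%) and 3837 higher in astrocytes (27.2%). In 5358 genes (38%) all 4 microglia libraries lay above all 4 astrocyte libraries, and in 5477 (38.8%) the reverse held. These shares are the background for each group of genes below, in which the same 14114 genes were tested. The genes more than 2-fold higher in microglia took 46.6% to 48.4% of the counts of a microglia library and 6.77% to 8.95% of an astrocyte library. Those higher in astrocytes took 41.2% to 44.9% of an astrocyte library and 3.27% to 5.03% of a microglia library. In bulk libraries of sorted cells, fewer cells of a type and less RNA per cell cannot be told apart.

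The 2 directions had different shapes. Beyond a log2 difference of 6 lay 439 genes higher in microglia but 131 higher in astrocytes. Between 4.5 and 6 lay 203 microglial genes, 7.69% of those called beyond 2-fold, and 1152 astrocyte genes, 30.0% of those called. Genes with at least 10 CPM in every library of one type and at most 3 counts in every library of the other numbered 63 for microglia and 0 for astrocytes. The share of the astrocyte level found in the microglia library differed between mice. For the median astrocyte marker it was 1.18%, 5.62%, 4.12% and 1.88% in replicates 1 to 4. The part of these shares in the sizes of the astrocyte differences was not tested. The median difference of the astrocyte markers was -6.14 in mice 1 and 4 and -4.32 in mice 2 and 3, against 9.75 and 9.19 for the microglial markers.

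**Figure D2:**
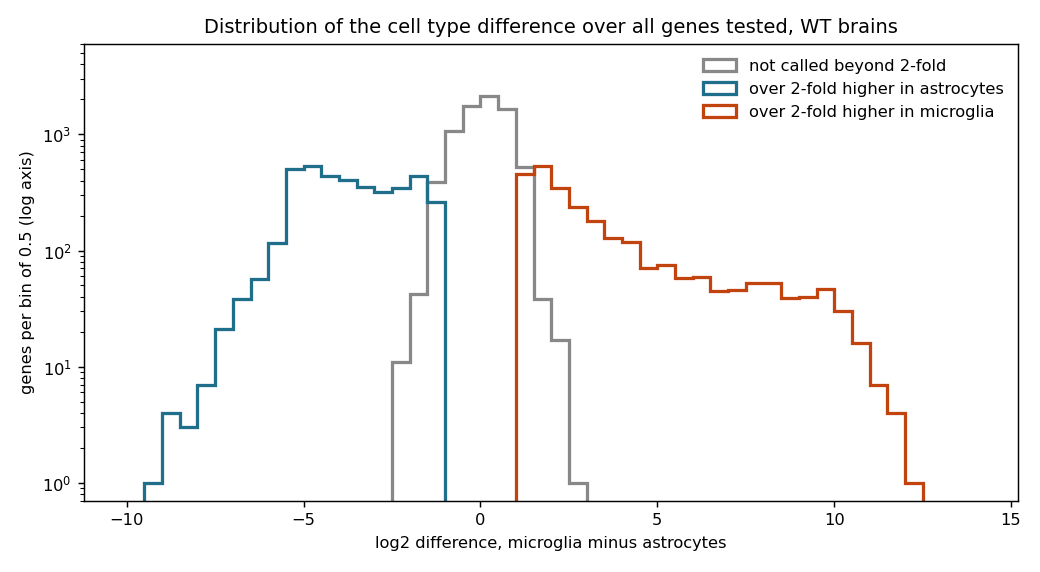
Number of genes (y axis, log axis) per 0.5-wide bin of the log2 difference, microglia minus astrocytes (x axis), for genes called beyond 2-fold in each direction and for the rest of the genes tested. The astrocyte side rises from 666 genes between -2 and -3 to 971 between -4 and -5. It holds 619 between -5 and -6 and 95 between -6 and -7, while the microglial side runs past 10.

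Markers of other cell types were not spread evenly over the libraries. Of the endothelial markers 14 of 15 tested were more than 2-fold higher in astrocytes, as were 12 of 12 mural, 12 of 12 ependymal and choroid plexus, 10 of 10 fibroblast and 8 of 8 oligodendrocyte precursor markers. In the order of replicates, Cldn5, the tight junction protein of brain endothelium, stood at 0, 5.66, 6.76 and 0.187 CPM in microglia and 84.8, 402, 349 and 70.3 CPM in astrocytes (log2 difference -6.52, and -7.11 without replicate 3). Rgs5, a marker of pericytes, was at 2.27, 33.1, 21.9 and 1.97 CPM in microglia and 122, 372, 346 and 64.6 CPM in astrocytes. Foxj1, the ciliary factor of ependymal cells, was at 0.455, 4.63, 4.12 and 0.936 CPM in microglia and 22.7, 110.1, 179 and 109 CPM in astrocytes. Replicate 1 or 4 was the lowest astrocyte library for each of these genes. The summed mural markers ran from 730 to 2115 CPM in astrocytes and from 30.7 to 217 CPM in microglia, and the ependymal ones from 223 to 1265 and from 11.3 to 308 CPM. Neuronal markers were low in both, at 48.0 to 80.1 CPM in astrocytes and 17.2 to 51.3 CPM in microglia. On the microglial side, the 12 border-associated macrophage markers were all more than 2-fold higher in microglia libraries and summed to 1839 to 1986 CPM against 8.87 to 38.4 CPM. Among them Mrc1, the mannose receptor, stood at 285, 289, 288 and 295 CPM in microglia and 0.899, 3.37, 1.34 and 2.15 CPM in astrocytes. Ccr2, the monocyte chemokine receptor, was at 28.4, 23.3, 32.8 and 38.2 CPM in microglia and 0, 0, 0.0395 and 0 CPM in astrocytes (ratio of pooled levels 2305, 95% counting interval 414 to 91060). It was the only one of 12 monocyte and neutrophil markers with enough counts to be tested. All 12 together summed to 33.6 to 41.5 CPM in microglia, most of it Ccr2. Oligodendrocyte markers were split, with 3 of 10 tested more than 2-fold higher in each type. Their sum was higher in astrocytes, at 599 to 755 CPM against 207 to 536 CPM in microglia. Mag, a myelin glycoprotein and a member on the microglial side, stood at 22.2, 39.2, 35.7 and 27.98 CPM in microglia and 1.68, 3.91, 4.74 and 2.64 CPM in astrocytes.

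**Figure D3:**
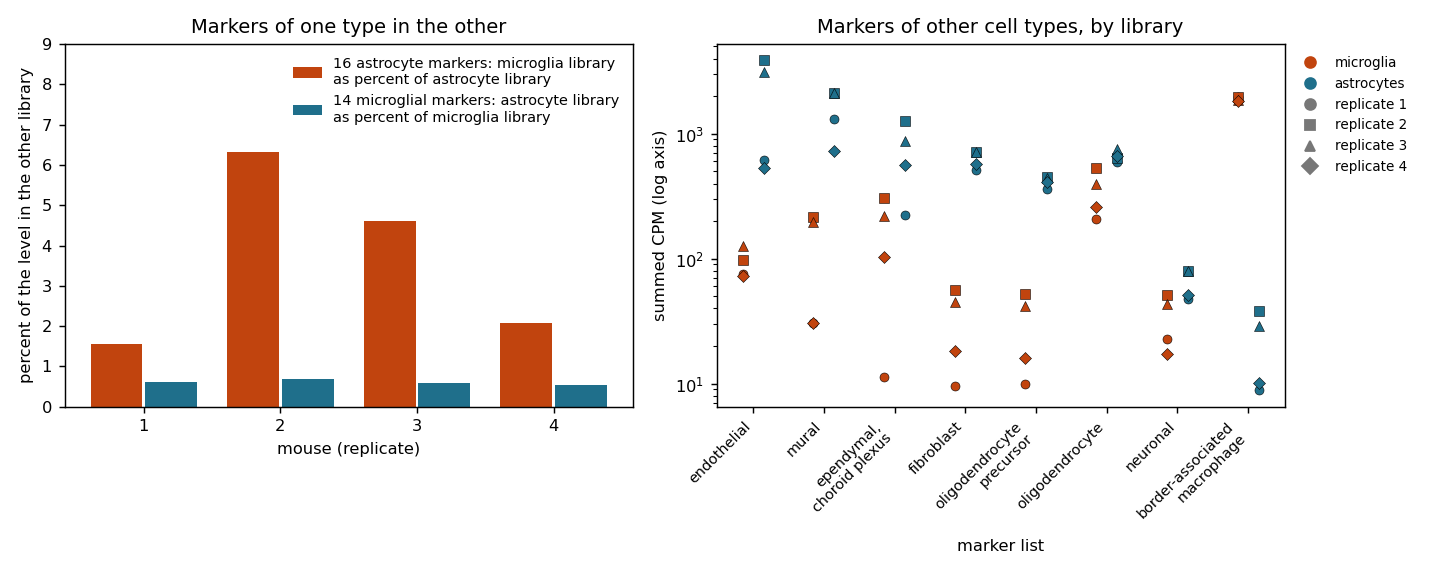
Left, summed level of the 16 astrocyte markers in each microglia library and of the 14 microglial markers in each astrocyte library (y axis, percent of the level in the other library of the same mouse) for replicates 1 to 4 (x axis). Right, summed CPM (log axis) of markers of other cell types in each library; endothelial, mural and ependymal sums are higher in astrocyte libraries and differ between replicates, and border-associated macrophage markers sit in microglia.

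The largest differences among genes of at least 100 CPM were taken in each direction. In microglia they included Tlr7, an endosomal receptor of single-stranded RNA, at 520.4, 472, 478 and 524 CPM in microglia and 0.225, 0.180, 0.0790 and 0.293 CPM in astrocytes (log2 difference 11.39, SE 0.25, adjusted p = 5e-06). Tifab, an inhibitor of TRAF signalling, was at 295 to 360.5 CPM in microglia and 0.0562 to 0.225 CPM in astrocytes (log2 difference 11.19, SE 0.29, adjusted p = 6e-06). Il21r, a cytokine receptor, Hk3, a hexokinase of myeloid cells, and Csf2rb, the shared beta chain of the GM-CSF receptor, followed with log2 differences of 10.85, 10.78 and 10.58. Each of these rests on few astrocyte counts, and the values were 11.45 for Il21r without replicate 4 and 11.46 for Hk3 and 11.59 for Csf2rb without replicate 2. In astrocytes the largest were Adgrl4, an adhesion receptor of endothelial cells, at 0.455, 1.29, 1.15 and 0.374 CPM in microglia and 45.7, 301, 207 and 35.7 CPM in astrocytes (log2 difference -7.39, SE 0.23, adjusted p = 7e-06). Slco1a4, an organic anion transporter of the blood-brain barrier, was at 0, 2.83, 3.321 and 0.281 CPM in microglia and 69.9, 486, 362 and 57.9 CPM in astrocytes (log2 difference -7.37, SE 0.37, adjusted p = 2.2e-05). Both were several-fold higher in astrocyte replicates 2 and 3 than in 1 and 4, as the summed endothelial markers were. Spock2, a matrix proteoglycan, was at 2.62, 15.1, 13.5 and 2.34 CPM in microglia and 344, 1500.1, 1174 and 327 CPM in astrocytes (log2 difference -6.77, SE 0.19, adjusted p = 7e-06). The chemokine Cxcl12 was at 1.14, 11.9, 7.21 and 2.71 CPM in microglia and 179, 1059, 809.9 and 159 CPM in astrocytes (log2 difference -6.56, SE 0.25, adjusted p = 1.1e-05), with the same split. Frzb, a secreted inhibitor of Wnt, did not share it, at 1.02, 4.63, 2.86 and 1.12 CPM in microglia and 143, 111, 159.8 and 132 CPM in astrocytes (log2 difference -5.87, SE 0.44, adjusted p = 7.3e-05, and -6.49 without replicate 2). Among genes of at least 500 CPM the smallest differences were those of Adgrg1, an adhesion receptor, at 1001 to 1349 CPM in microglia and 969.6 to 1512 CPM in astrocytes (log2 difference -0.04, SE 0.14, adjusted p = 0.809), Dpysl2, a microtubule regulator (-0.10), Hspa8, the constitutive heat shock chaperone (0.12), and the RNA-binding Qk (0.20), and none of these 4 differed in the fit with the mouse as a block.

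The transcription factors of each lineage separated the types. Of 21 microglial factors tested, 19 were more than 2-fold higher in microglia and 1, Bhlhe40, in astrocytes. Cebpa, a myeloid factor, stood at 624, 663, 619 and 605 CPM in microglia and 15.2, 18.8, 15.6 and 16.6 CPM in astrocytes (log2 difference 5.25, SE 0.12, adjusted p = 5e-06). Irf8, which microglia need for their identity, was at 517, 514, 556 and 533 CPM in microglia and 1.01, 1.62, 0.632 and 0.880 CPM in astrocytes (log2 difference 9.02, SE 0.30, adjusted p = 8e-06), and Ikzf1 differed by 9.68. Spi1, which encodes PU.1 and is named here outside the naming rule for that role, was at 169, 153, 181 and 197 CPM in microglia and 0.0562, 0.404, 0 and 0.489 CPM in astrocytes (log2 difference 9.68, SE 0.55, adjusted p = 3.1e-05, and 10.48 without replicate 2 and 9.07 without replicate 3). Of 29 astrocyte factors, 28 were more than 2-fold higher in astrocytes. Pax6, a factor of neural progenitors and astrocytes, was at 1.02, 1.8, 0.687 and 0.936 CPM in microglia and 38.2, 30.5, 30.6 and 37.4 CPM in astrocytes (log2 difference -4.90, SE 0.25, adjusted p = 2.4e-05), and Otx1 differed by -5.46. Zbtb20, which promotes astrocyte formation, was at 34.4, 35.0, 34.9 and 28.9 CPM in microglia and 132, 116, 127 and 118 CPM in astrocytes, with a smaller difference of -1.89. Id1, a helix-loop-helix inhibitor that endothelial cells also use, was at 0.910, 2.74, 1.603 and 0.468 CPM in microglia and 25.8, 100.5, 70.4 and 34.9 CPM in astrocytes and again highest in astrocyte replicates 2 and 3. Sox9, a nuclear marker of astrocytes also named outside the rule, differed by -5.48. The exception was Atf3, a stress-response factor that is also in the immediate early list, which was higher in microglia at 735, 929.7, 732 and 557 CPM in microglia and 2.81, 21.0, 14.7 and 3.52 CPM in astrocytes (log2 difference 6.51, SE 0.56, adjusted p = 0.000118).

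The promoters of the microglial genes held the PU.1 motif more often than those of the astrocyte genes. Searched on both strands of the 300 bases from 250 before to 50 after each RefSeq start, GAGGAAGT stood in 5.20% of 2540 promoters of genes more than 2-fold higher in microglia and in 1.71% of 3744 of genes higher in astrocytes. The share was 2.93% over the promoters of all genes tested and 3.20% over all 32851 promoters of the table. The shorter nuclear factor I (NFI) motif was in 1.42% of the microglial and 2.08% of the astrocyte promoters, against 1.66% over the genes tested and 1.38% over all promoters. The AP-1 motif, TGANTCA, was in 6.34% and 6.12%, against 5.21% and 7.81%. A gene can have several promoters in the table, and a match describes letters, not binding. The promoters below are of genes with high levels, a match and a log2 difference of at least 4 in size, with the PU.1 match (or NFI match for Slc1a4) in capitals, from RefSeq on GRCm38.p6, written 5′ to 3′ along the gene's strand. The 4 sequences show where such a match lies relative to the start of a gene that separates the cell types. Not every chromosome entered this choice, and other genes that it took are not printed.
Ctss (chr3:95526536-95526835, plus strand): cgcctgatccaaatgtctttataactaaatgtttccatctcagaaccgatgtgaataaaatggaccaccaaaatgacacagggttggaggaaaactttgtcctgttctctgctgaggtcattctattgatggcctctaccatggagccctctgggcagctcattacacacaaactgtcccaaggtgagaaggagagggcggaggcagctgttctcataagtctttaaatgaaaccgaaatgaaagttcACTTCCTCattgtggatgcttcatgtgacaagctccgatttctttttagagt
C1qc (chr4:136892865-136893164, minus strand): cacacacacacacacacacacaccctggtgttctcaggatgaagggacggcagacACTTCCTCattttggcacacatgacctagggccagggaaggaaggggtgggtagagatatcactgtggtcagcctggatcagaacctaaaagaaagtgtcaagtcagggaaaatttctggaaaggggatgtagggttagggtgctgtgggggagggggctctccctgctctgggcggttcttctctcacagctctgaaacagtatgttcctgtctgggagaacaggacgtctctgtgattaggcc
Inpp5d (chr1:87620062-87620361, plus strand): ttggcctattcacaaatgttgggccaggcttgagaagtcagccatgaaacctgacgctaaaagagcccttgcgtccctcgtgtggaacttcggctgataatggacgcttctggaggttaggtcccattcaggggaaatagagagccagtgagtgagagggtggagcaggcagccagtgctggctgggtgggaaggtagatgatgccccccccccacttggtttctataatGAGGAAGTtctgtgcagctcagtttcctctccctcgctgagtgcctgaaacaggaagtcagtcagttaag
Slc1a4 (chr11:20332664-20332963, minus strand): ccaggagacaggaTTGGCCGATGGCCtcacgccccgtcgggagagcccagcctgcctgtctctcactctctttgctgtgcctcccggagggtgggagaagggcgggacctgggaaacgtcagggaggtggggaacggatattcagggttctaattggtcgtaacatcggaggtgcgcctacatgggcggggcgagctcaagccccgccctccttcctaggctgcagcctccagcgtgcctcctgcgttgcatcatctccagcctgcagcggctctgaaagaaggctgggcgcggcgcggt

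The first base of the match lies at -2 for Ctss, which encodes cathepsin S, at -195 for C1qc, a chain of complement C1q, and at -20 for Inpp5d, the phosphatase SHIP1, counted from the start at +1 with no base 0. In Ctss and C1qc it reads ACTTCCTC, the motif on the opposite strand. Ctss also holds GAAACCGAAA, an interferon-response pattern of 2 GAAA repeats, with its first base at -21. These genes stood at 3986 to 4799 CPM in microglia and 3.14 to 9.25 CPM in astrocytes for Ctss, 2862 to 3255 CPM in microglia and 2.02 to 6.74 CPM in astrocytes for C1qc and 1224 to 1399 CPM in microglia and 2.84 to 9.30 CPM in astrocytes for Inpp5d, with log2 differences of 9.70, 9.49 and 7.88. Slc1a4, a neutral amino acid transporter that exports serine, has its NFI match at -237 and was at 29.2, 46.2, 33.4 and 31.3 CPM in microglia and 1098, 706, 659.7 and 1107 CPM in astrocytes (log2 difference -4.65, SE 0.29, adjusted p = 4e-05).

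Growth and TGF-beta signals were divided between the cells. Of 24 genes of this list, 9 were more than 2-fold higher in microglia and 12 in astrocytes. Csf1r, the receptor that keeps microglia alive, was among the most abundant transcripts of microglia, at 9691, 9603, 9952 and 11589 CPM in microglia and 5.17, 12.7, 10.9 and 8.997 CPM in astrocytes (log2 difference 10.13, SE 0.41, adjusted p = 1.2e-05). Its ligand Il34 was at 0.341, 1.54, 1.72 and 0.561 CPM in microglia and 11.9, 19.0, 18.1 and 8.801 CPM in astrocytes (log2 difference -3.83, SE 0.27, adjusted p = 5.5e-05). Its other ligand Csf1, named as the one that did not separate the cells, was at 119, 115, 86.8 and 76.4 CPM in microglia and 135, 97.6, 90.7 and 129.8 CPM in astrocytes (log2 difference -0.19, adjusted p = 0.330) and the groups overlapped. In mice 1 and 4 alone Csf1 was lower in microglia by a log2 difference of -0.53, and in mice 2 and 3 alone the value was 0.15. Tgfb1 and the receptors Tgfbr1 and Tgfbr2 were higher in microglia, Tgfbr1 at 3486, 2919.8, 3320.2 and 3609 CPM in microglia and 49.1, 47.3, 47.7 and 42.3 CPM in astrocytes (log2 difference 6.16, SE 0.19, adjusted p = 7e-06), while Tgfb2 was at 0.682, 5.06, 3.09 and 2.06 CPM in microglia and 73.0, 83.2, 75.8 and 64.2 CPM in astrocytes (log2 difference -4.84, SE 0.37, adjusted p = 7.5e-05). The integrin chains that bind latent TGF-beta also differed in direction, Itgb5 at 3.36 and Itgb8 at -5.02. Csf2ra, the GM-CSF receptor alpha chain, was at 48.3 to 66.1 CPM in microglia and 4.50 to 6.36 CPM in astrocytes (log2 difference 3.45, SE 0.10, adjusted p = 7e-06).

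Cytokines and their receptors lay on both sides. Of 30 cytokine and receptor genes tested, 21 were more than 2-fold higher in microglia and 6 in astrocytes, and of 18 chemokine genes 13 and 5. Il1a, interleukin 1 alpha, was at 187, 177, 169.7 and 138 CPM in microglia and 0.225, 0.0449, 0.0790 and 0.196 CPM in astrocytes (log2 difference 10.37, SE 0.28, adjusted p = 7e-06). Il1b was at 24.6, 26.5, 37.4 and 24.6 CPM in microglia and 0, 0.0898, 0.0395 and 0 CPM in astrocytes (ratio of pooled levels 705, 95% counting interval 241 to 3417). Tnf was at 76.6, 58.5, 65.8 and 69.1 CPM in microglia and 0, 0, 0 and 0.0978 CPM in astrocytes (ratio of pooled levels 5060, 95% counting interval 908 to 199900). Over the 4 astrocyte libraries Il1a had 9 counts, Il1b 3 and Tnf 1. The receptor Il1r1 was at 3.18, 4.03, 4.01 and 3.18 CPM in microglia and 9.15, 15.5, 16.8 and 6.45 CPM in astrocytes (log2 difference -1.66, SE 0.22, adjusted p = 0.000639), and its highest astrocyte libraries were again replicates 2 and 3. Oncostatin M followed the same pattern, with the ligand Osm at 44.9, 51.8, 38.7 and 45.6 CPM in microglia and 0.112, 0.135, 0.119 and 0 CPM in astrocytes (log2 difference 8.63, SE 0.25, adjusted p = 7e-06). Its receptor chain Osmr was at 0.114, 3.26, 2.06 and 0.281 CPM in microglia and 30.8, 48.5, 49.6 and 27.1 CPM in astrocytes (log2 difference -4.89, SE 0.46, adjusted p = 0.000167, and -5.58 without replicate 2). The alarmin Il33 ran the other way, at 2.16, 11.5, 6.99 and 4.68 CPM in microglia and 123, 90.9, 91.2 and 124 CPM in astrocytes (log2 difference -4.17, SE 0.46, adjusted p = 0.000325), with its receptor Il1rl1 at 23.9, 11.5, 16.9 and 15.8 CPM in microglia and 0, 0, 0.0395 and 0 CPM in astrocytes (ratio of pooled levels 1253, 95% counting interval 225 to 49500). Cx3cl1, the membrane-bound ligand, was at 0.455, 3.94, 4.12 and 1.22 CPM in microglia and 35.2, 50.7, 59.2 and 43.4 CPM in astrocytes (log2 difference -4.38, SE 0.37, adjusted p = 0.000104). Its receptor Cx3cr1 was at 6505, 5719, 6472 and 7695 CPM in microglia and 3.54, 7.37, 6.76 and 7.14 CPM in astrocytes (log2 difference 10.09, SE 0.36, adjusted p = 1e-05). The chemokine Ccl3 was at 138, 169, 103 and 110.0 CPM in microglia and 0.168, 0, 0 and 0.0978 CPM in astrocytes (log2 difference 11.04, SE 0.44, adjusted p = 1.2e-05, and 12.33 without replicate 1 and 10.43 without replicate 2).

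Of the 38 ligand and receptor pairs with both genes tested, 13 had the ligand and the receptor more than 2-fold higher in opposite cell types. These pairs, too, were chosen with results known, and the count describes them alone. In 8 the ligand was the astrocyte gene, and in 5 the microglial one. The 8 were Il34 to Csf1r, Tgfb2 to Tgfbr2, Cx3cl1 to Cx3cr1, C3 to C3ar1, Il33 to Il1rl1, Apoe to Trem2, Clu to Trem2 and Cd200 to Cd200r1. The 5 were Il1a and Il1b to Il1r1, Osm to Osmr, Pdgfb to Pdgfrb and Sema4d to Plxnb1. Cd200, a restraint signal to myeloid cells, stood at 0.227, 1.71, 1.26 and 0.187 CPM in microglia and 20.3, 47.9, 37.2 and 15.7 CPM in astrocytes (log2 difference -5.21, SE 0.27, adjusted p = 2.4e-05). Its receptor Cd200r1 was at 20.02, 19.2, 22.4 and 19.8 CPM in microglia and 0, 0.180, 0 and 0 CPM in astrocytes (log2 difference 8.39, SE 0.54, adjusted p = 4.3e-05, and 11.17 without replicate 2 and 7.80 without replicate 3). Sema4d, a semaphorin, was at 465 to 559.7 CPM in microglia and 58.1 to 92.1 CPM in astrocytes (log2 difference 2.84, SE 0.13, adjusted p = 1.9e-05). Its receptor Plxnb1 was at 13.99 to 43.7 CPM in microglia and 569 to 764 CPM in astrocytes (log2 difference -4.86, SE 0.42, adjusted p = 0.000113). Pdgfb differed by 3.48 and its receptor Pdgfrb, a pericyte marker, by -4.72. Pdgfb in astrocyte libraries was 61.4 and 62.7 CPM in replicates 2 and 3 against 13.1 and 11.8 CPM in 1 and 4, and Cd200 split in the same way.

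**Figure D4:**
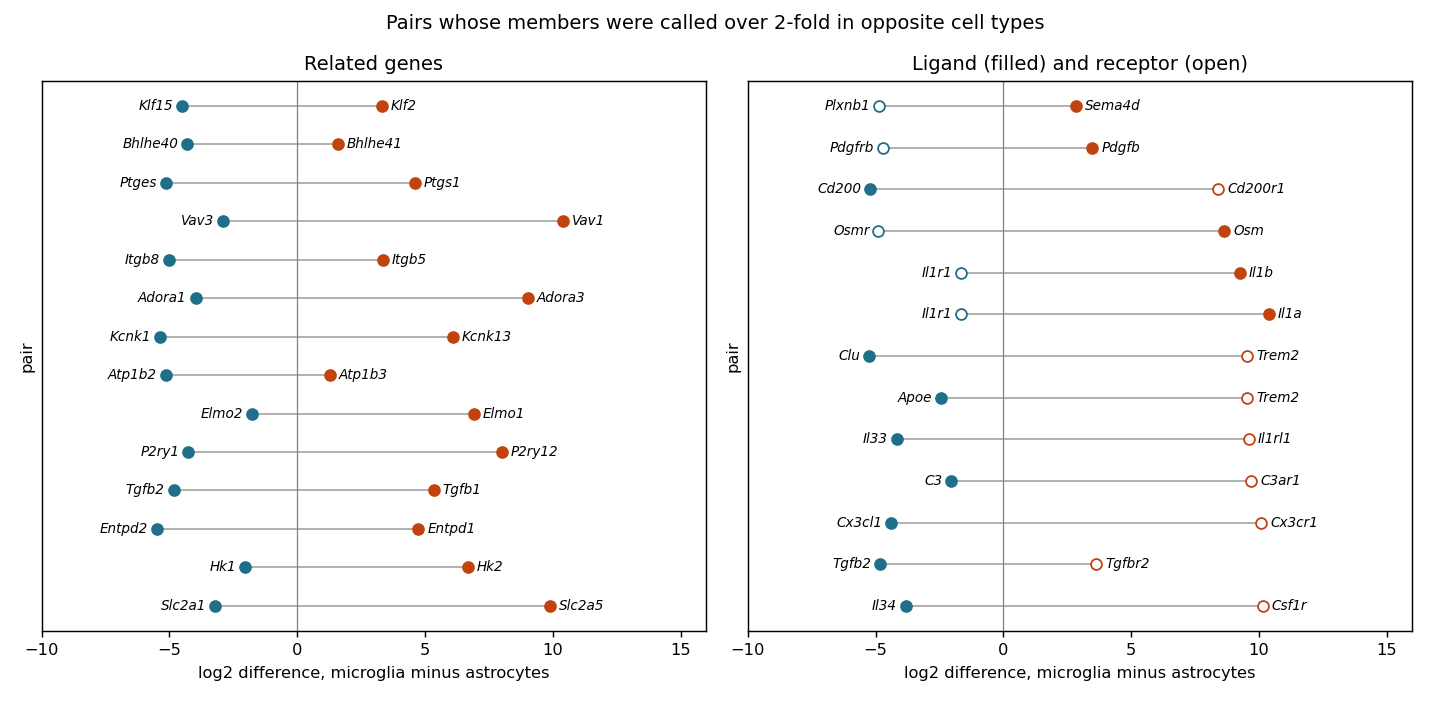
Log2 difference, microglia minus astrocytes (x axis), of the 2 members of pairs called beyond 2-fold in opposite directions, for 14 pairs of related genes (left) and for the 13 ligands with their receptors (right, ligand filled, receptor open), with blue for astrocytes and orange for microglia. The astrocyte members lie between -5.48 and -1.66 and the microglial members between 1.27 and 10.41, where the values of Il1b and Il1rl1 rest on 3 astrocyte counts or fewer.

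Genes of pattern recognition and immunoreceptor signalling were higher in microglia. Of 19 Toll-like receptor genes, 17 were more than 2-fold higher in microglia. Tlr9, a receptor of CpG DNA, was at 210.2 to 303 CPM in microglia and 0.0978 to 0.269 CPM in astrocytes (log2 difference 10.17, SE 0.23, adjusted p = 5e-06). Its trafficking partner Unc93b1 was at 1086 to 1299 CPM in microglia and 8.76 to 11.9 CPM in astrocytes (log2 difference 6.83, SE 0.19, adjusted p = 7e-06). Cd14, the lipopolysaccharide co-receptor, differed by 8.29. The only member of the list that was higher in astrocytes was Tlr3, the receptor of double-stranded RNA, at 133, 121, 121 and 141 CPM in microglia and 352, 254, 224 and 334 CPM in astrocytes (log2 difference -1.15, SE 0.12, adjusted p = 0.00023), which did not pass the 2-fold test. All 23 Fc receptor and ITAM genes and all 24 genes of the leukocyte NADPH oxidase and actin list were more than 2-fold higher in microglia, with medians of 8.66 and 8.34. Tyrobp, the adaptor of Trem2, was at 289, 319.8, 327 and 354 CPM in microglia and 0.168, 0.539, 0.395 and 0.293 CPM in astrocytes (log2 difference 9.76, SE 0.25, adjusted p = 6e-06). Trem2, a lipid receptor, was at 603, 571, 610.0 and 630.1 CPM in microglia and 0.281, 0.898, 1.07 and 1.08 CPM in astrocytes (log2 difference 9.53, SE 0.35, adjusted p = 1e-05). Btk, a kinase downstream of these receptors, was at 95.2, 85.5, 87.3 and 89.6 CPM in microglia and 0, 0.0449, 0 and 0 CPM in astrocytes (ratio of pooled levels 6738, 95% counting interval 1209 to 266100), a single count among the 4 astrocyte libraries. Ncf1, an oxidase subunit, was at 524 to 556 CPM in microglia and 0.711 to 1.03 CPM in astrocytes (log2 difference 9.34, SE 0.17, adjusted p = 5e-06). Fcgr2b, the inhibitory Fc receptor, was at 203 to 239.7 CPM in microglia and 3.59 to 5.10 CPM in astrocytes (log2 difference 5.64, SE 0.14, adjusted p = 5e-06). The 23 MHC and peptide loading genes all differed towards microglia, 17 of them by more than 2-fold, with the class II chain H2-Aa at 148 to 231 CPM in microglia and 0.112 to 0.359 CPM in astrocytes (log2 difference 9.37, SE 0.27, adjusted p = 7e-06). Its chaperone Cd74 was at 423 to 615 CPM in microglia and 0.618 to 1.39 CPM in astrocytes (log2 difference 9.16, SE 0.33, adjusted p = 1e-05). Class I genes share much sequence, and no source used here says how reads were split between them.

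Complement was divided by component. Of 25 genes tested, 10 were more than 2-fold higher in microglia and 9 in astrocytes. The C1q chain C1qa, which starts the classical pathway, was at 2729.7, 2594, 2886 and 3114 CPM in microglia and 2.58, 3.323, 3.004 and 3.52 CPM in astrocytes (log2 difference 9.83, SE 0.21, adjusted p = 5e-06), and the anaphylatoxin receptors C3ar1 and C5ar1 differed by 9.68 and 8.83. C3, whose deficiency the series title names, was low in both, at 3.18, 3.60, 4.92 and 3.28 CPM in microglia and 3.26, 16.8, 28.7 and 22.98 CPM in astrocytes (log2 difference -2.03, SE 0.45, adjusted p = 0.00644). Astrocyte replicate 1, the female, lay at the microglial level for C3, so the groups overlapped. Clu, the fluid-phase inhibitor clusterin, was at 47.2, 176, 132 and 66.2 CPM in microglia and 4481, 2976, 3049 and 3857 CPM in astrocytes (log2 difference -5.25, SE 0.53, adjusted p = 0.000208). The median of the list was -0.05 and changed sign under 4 of the alternatives. Of 26 engulfment genes 11 were more than 2-fold higher in microglia and 6 in astrocytes. Havcr2, a phosphatidylserine receptor, was at 244 to 282 CPM in microglia and 0.269 to 0.618 CPM in astrocytes (log2 difference 9.48, SE 0.22, adjusted p = 5e-06). The Rac activator Dock2 was at 686 to 793 CPM in microglia and 0.393 to 1.26 CPM in astrocytes (log2 difference 9.75, SE 0.35, adjusted p = 1e-05). The adaptor Gulp1 ran the other way at 0.910, 1.46, 1.26 and 0.749 CPM in microglia and 26.3, 31.3, 25.6 and 27.9 CPM in astrocytes (log2 difference -4.66, SE 0.18, adjusted p = 1.1e-05).

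Purinergic genes were evenly split, 11 of 22 more than 2-fold higher in each type. P2ry6, a UDP receptor linked to phagocytosis, was at 198 to 251 CPM in microglia and 0.196 to 0.553 CPM in astrocytes (log2 difference 9.28, SE 0.24, adjusted p = 6e-06). The ATP-gated channel P2rx7 was at 317 to 369 CPM in microglia and 39.4 to 56.0 CPM in astrocytes (log2 difference 2.82, SE 0.10, adjusted p = 1e-05). P2ry1, the ADP receptor that astrocytes use for calcium signals, was at 0.341, 1.03, 2.06 and 0.655 CPM in microglia and 15.6, 21.0, 19.7 and 19.3 CPM in astrocytes (log2 difference -4.27, SE 0.33, adjusted p = 8.1e-05). The adenosine receptors Adora3 and Adora1 differed by 9.01 and -3.97. The ectonucleotidase Entpd1, or CD39, was at 972, 1068, 1021 and 1183 CPM in microglia and 33.9, 49.9, 53.8 and 26.9 CPM in astrocytes (log2 difference 4.73, SE 0.25, adjusted p = 2.7e-05). Entpd2 was at 1.82, 8.57, 7.44 and 4.30 CPM in microglia and 305, 181, 179.9 and 308 CPM in astrocytes (log2 difference -5.48, SE 0.55, adjusted p = 0.000203). The ADP receptors, adenosine receptors and ectonucleotidases each had a gene higher in either cell. The median of the list was -0.17, and -2.14 in mice 2 and 3 alone, since with 11 genes on each side it falls in the gap between them.

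Most genes of transmitter uptake and secreted matrix were higher in astrocytes, while genes of ion handling lay on both sides. Of 27 glutamate and GABA genes, 25 were more than 2-fold higher in astrocytes, with a median of -4.96. Slc1a2, the glutamate transporter GLT-1, named here outside the rule, was the most abundant of them at 271, 992, 659 and 336 CPM in microglia and 19059, 14589, 14178 and 18278 CPM in astrocytes (log2 difference -5.05, SE 0.54, adjusted p = 0.000267). Aldh5a1, which breaks down GABA, was at 7.85, 10.3, 8.82 and 6.64 CPM in microglia and 145, 116, 127 and 161 CPM in astrocytes (log2 difference -4.02, SE 0.20, adjusted p = 2.3e-05). Gabra2, a GABA receptor chain, was at 0.0936 to 0.455 CPM in microglia and 5.87 to 12.1 CPM in astrocytes (log2 difference -5.32, SE 0.31, adjusted p = 3.4e-05). Glul, glutamine synthetase, also named outside the rule, was abundant in both, at 1944, 2312, 1965 and 2025 CPM in microglia and 8659, 6878, 6268 and 8281 CPM in astrocytes (log2 difference -1.86, SE 0.22, adjusted p = 0.000418). Of 30 potassium, water and junction genes, 17 were more than 2-fold higher in astrocytes and 8 in microglia. Aqp4, the water channel of endfeet, was at 26.4, 72.5, 52.2 and 33.3 CPM in microglia and 1744, 1310.2, 1290.0 and 1736 CPM in astrocytes (log2 difference -5.13, SE 0.40, adjusted p = 8.1e-05). Kcnj16, an inward rectifier, was at 7.28, 16.3, 7.90 and 8.23 CPM in microglia and 279.7, 228, 234 and 283 CPM in astrocytes (log2 difference -4.75, SE 0.29, adjusted p = 3.7e-05). On the microglial side the potassium channel Kcnk13, or THIK-1, was at 107, 92.3, 89.6 and 108 CPM in microglia and 0.955, 1.84, 1.30 and 1.66 CPM in astrocytes (log2 difference 6.10, SE 0.21, adjusted p = 9e-06). The proton channel Hvcn1 was at 140.4 to 177 CPM in microglia and 0.180 to 0.949 CPM in astrocytes (log2 difference 8.08, SE 0.37, adjusted p = 1.8e-05).

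Of 31 synaptogenic and matrix genes, 28 were more than 2-fold higher in astrocytes and 2 in microglia. Ndp, the Wnt ligand norrin, was at 0.682, 1.54, 1.37 and 1.31 CPM in microglia and 91.8, 50.1, 49.3 and 69.0 CPM in astrocytes (log2 difference -5.65, SE 0.30, adjusted p = 2.6e-05). The thrombospondin Thbs4 was at 0.569, 1.37, 1.03 and 0.374 CPM in microglia and 16.1, 26.0, 14.6 and 22.3 CPM in astrocytes (log2 difference -4.57, SE 0.30, adjusted p = 4.8e-05). The 2 microglial members were Sparc and Cst3. Sparc, a collagen-binding glycoprotein, was at 2331, 2379, 2549 and 2713 CPM in microglia and 563, 647, 674 and 599 CPM in astrocytes (log2 difference 2.01, SE 0.15, adjusted p = 6.3e-05). The protease inhibitor cystatin C, Cst3, was at 6820.4, 7376, 7851 and 8554 CPM in microglia and 3363, 2465, 2223 and 3006 CPM in astrocytes (log2 difference 1.48, SE 0.23, adjusted p = 0.00146). Of 35 genes of the Notch, Wnt, FGF and Hedgehog list, 29 were more than 2-fold higher in astrocytes and 2 in microglia. The Notch ligand Jag1 was at 5.00, 10.3, 9.505 and 5.80 CPM in microglia and 135, 132, 129.8 and 136 CPM in astrocytes (log2 difference -4.16, SE 0.23, adjusted p = 2.7e-05). The Hedgehog receptor Ptch1 was at 30.8, 38.5, 38.02 and 33.8 CPM in microglia and 549, 381, 383 and 595 CPM in astrocytes (log2 difference -3.73, SE 0.21, adjusted p = 3.2e-05). The Notch target Hes1 was at 18.9, 21.9, 20.5 and 17.97 CPM in microglia and 59.7, 56.9, 60.3 and 50.2 CPM in astrocytes (log2 difference -1.52, SE 0.09, adjusted p = 3.5e-05). The guidance cue Slit2 was at 0.455 to 1.46 CPM in microglia and 26.9 to 40.6 CPM in astrocytes (log2 difference -5.41, SE 0.22, adjusted p = 1.2e-05). In mice 1 and 4 alone the medians of these 2 lists were -5.86 and -5.64, and in mice 2 and 3 alone -4.02 and -4.02.

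Lysosomal and metabolic genes were split along pathways. Of 38 lysosomal genes 21 were more than 2-fold higher in microglia and 2 in astrocytes. Cd68, a lysosomal membrane protein of macrophages, was at 323, 275.03, 332 and 334 CPM in microglia and 1.18, 0.719, 1.03 and 0.880 CPM in astrocytes (log2 difference 8.36, SE 0.15, adjusted p = 5e-06). The mannosidase Man2b1 was at 1231, 1201, 1322 and 1371 CPM in microglia and 56.6, 47.9, 48.1 and 54.2 CPM in astrocytes (log2 difference 4.63, SE 0.14, adjusted p = 7e-06). The glucuronidase Gusb was at 180.0 to 242 CPM in microglia and 27.0 to 31.9 CPM in astrocytes (log2 difference 2.89, SE 0.09, adjusted p = 8e-06). Of 25 cholesterol synthesis genes, 22 were more than 2-fold higher in astrocytes, and 1 differed towards microglia by less. Fdps, which makes farnesyl diphosphate, was at 5.35, 5.31, 6.18 and 6.46 CPM in microglia and 34.6, 32.1, 29.9 and 37.5 CPM in astrocytes (log2 difference -2.52, SE 0.11, adjusted p = 1.7e-05). Hsd17b7 was at 5.80, 6.86, 5.50 and 5.90 CPM in microglia and 84.1, 57.6, 48.3 and 72.5 CPM in astrocytes (log2 difference -3.42, SE 0.17, adjusted p = 2.1e-05). Lss, which closes the sterol rings, was at 12.5 to 14.8 CPM in microglia and 55.5 to 74.4 CPM in astrocytes (log2 difference -2.31, SE 0.11, adjusted p = 1.7e-05). Apoe, the main apolipoprotein of the brain, was abundant in both, at 658, 844, 814 and 579 CPM in microglia and 4351, 3496, 3303 and 4435 CPM in astrocytes (log2 difference -2.43, SE 0.24, adjusted p = 0.000185). The lipid transporters Abca9 and Abca7 were higher in microglia by 6.15 and 1.54, and the receptor Lrp4 was higher in astrocytes (-2.91).

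The sugar transporter and hexokinase families each had members with higher RNA levels in either of the 2 cells. The glucose transporter Slc2a1, or GLUT1, was at 73.8, 89.3, 80.7 and 70.7 CPM in microglia and 543, 1025, 807 and 602 CPM in astrocytes (log2 difference -3.20, SE 0.15, adjusted p = 1.9e-05). Slc2a5, the fructose transporter GLUT5, was at 665, 625, 678 and 882 CPM in microglia and 0.393, 1.26, 0.751 and 0.489 CPM in astrocytes (log2 difference 9.88, SE 0.38, adjusted p = 1.1e-05). Hexokinase 1, Hk1, was at 48.5, 52.0, 52.4 and 55.3 CPM in microglia and 229, 193, 208 and 235 CPM in astrocytes (log2 difference -2.05, SE 0.10, adjusted p = 2e-05). Hexokinase 2, Hk2, was at 564, 502, 536 and 540.2 CPM in microglia and 4.60, 5.03, 5.85 and 5.67 CPM in astrocytes (log2 difference 6.66, SE 0.14, adjusted p = 5e-06). Hk3 was at 140.0, 129.7, 126 and 130.4 CPM in microglia and 0.112, 0.135, 0 and 0 CPM in astrocytes (log2 difference 10.78, SE 0.37, adjusted p = 9e-06). The lactate transporter Slc16a1 was at 29.7, 38.7, 38.1 and 33.8 CPM in microglia and 230.0, 399, 327 and 249.9 CPM in astrocytes (log2 difference -3.08, SE 0.12, adjusted p = 1.1e-05). Slc2a1 and Slc16a1, which endothelial cells also carry, were highest in astrocyte replicates 2 and 3. Of 30 glycolysis and lactate genes, 16 were more than 2-fold higher in astrocytes and 6 in microglia. Of 19 glycogen genes the numbers were 11 and 1. The phosphorylase Pygb was at 105 to 129 CPM in microglia and 909.9 to 1212 CPM in astrocytes (log2 difference -3.15, SE 0.17, adjusted p = 2.7e-05). Its relative Pygm was at 8.08 to 15.6 CPM in microglia and 235 to 355 CPM in astrocytes (log2 difference -4.66, SE 0.27, adjusted p = 3.5e-05).

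Fatty acid oxidation was higher in astrocytes for 20 of 30 genes by more than 2-fold and in microglia for 1. The dehydrogenase Acadl was at 32.1 to 35.0 CPM in microglia and 110.3 to 128 CPM in astrocytes (log2 difference -1.79, SE 0.09, adjusted p = 2.4e-05). Hadhb was at 23.4 to 29.9 CPM in microglia and 89.8 to 107 CPM in astrocytes (log2 difference -1.88, SE 0.11, adjusted p = 3.7e-05). Of 23 serine and one-carbon genes 14 were more than 2-fold higher in astrocytes and 6 in microglia, with the serine synthesis enzymes Psat1 (-3.16) and Psph (-2.92) among the former. Of 30 antioxidant genes the numbers were 15 and 4, with Gclm, a subunit for glutathione synthesis, at 13.3 to 16.03 CPM in microglia and 51.5 to 60.7 CPM in astrocytes (log2 difference -1.98, SE 0.09, adjusted p = 1.9e-05), the glutathione transferase Gsta4 at -4.93 and the metallothionein Mt1 at -3.75. Respiratory chain subunits differed in one direction and by less. Of 38, 36 differed and all 36 were higher in astrocytes, 12 of them by more than 2-fold, with a median of -0.97. Atp5o was at 26.6, 27.0, 30.1 and 28.3 CPM in microglia and 96.5, 85.8, 83.3 and 89.8 CPM in astrocytes (log2 difference -1.66, SE 0.10, adjusted p = 3.3e-05), and Cox5a and Uqcrfs1 differed by -1.76 and -1.47. Subunits of the constitutive proteasome served as a contrast, since 16 of 31 differed, 15 of them towards astrocytes, and all 31 differences lay between -0.71 and 0.38. Their median was -0.23, and the 2 with the lowest p were Psmb5 (-0.71) and Psma6 (-0.51).

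**Figure D5:**
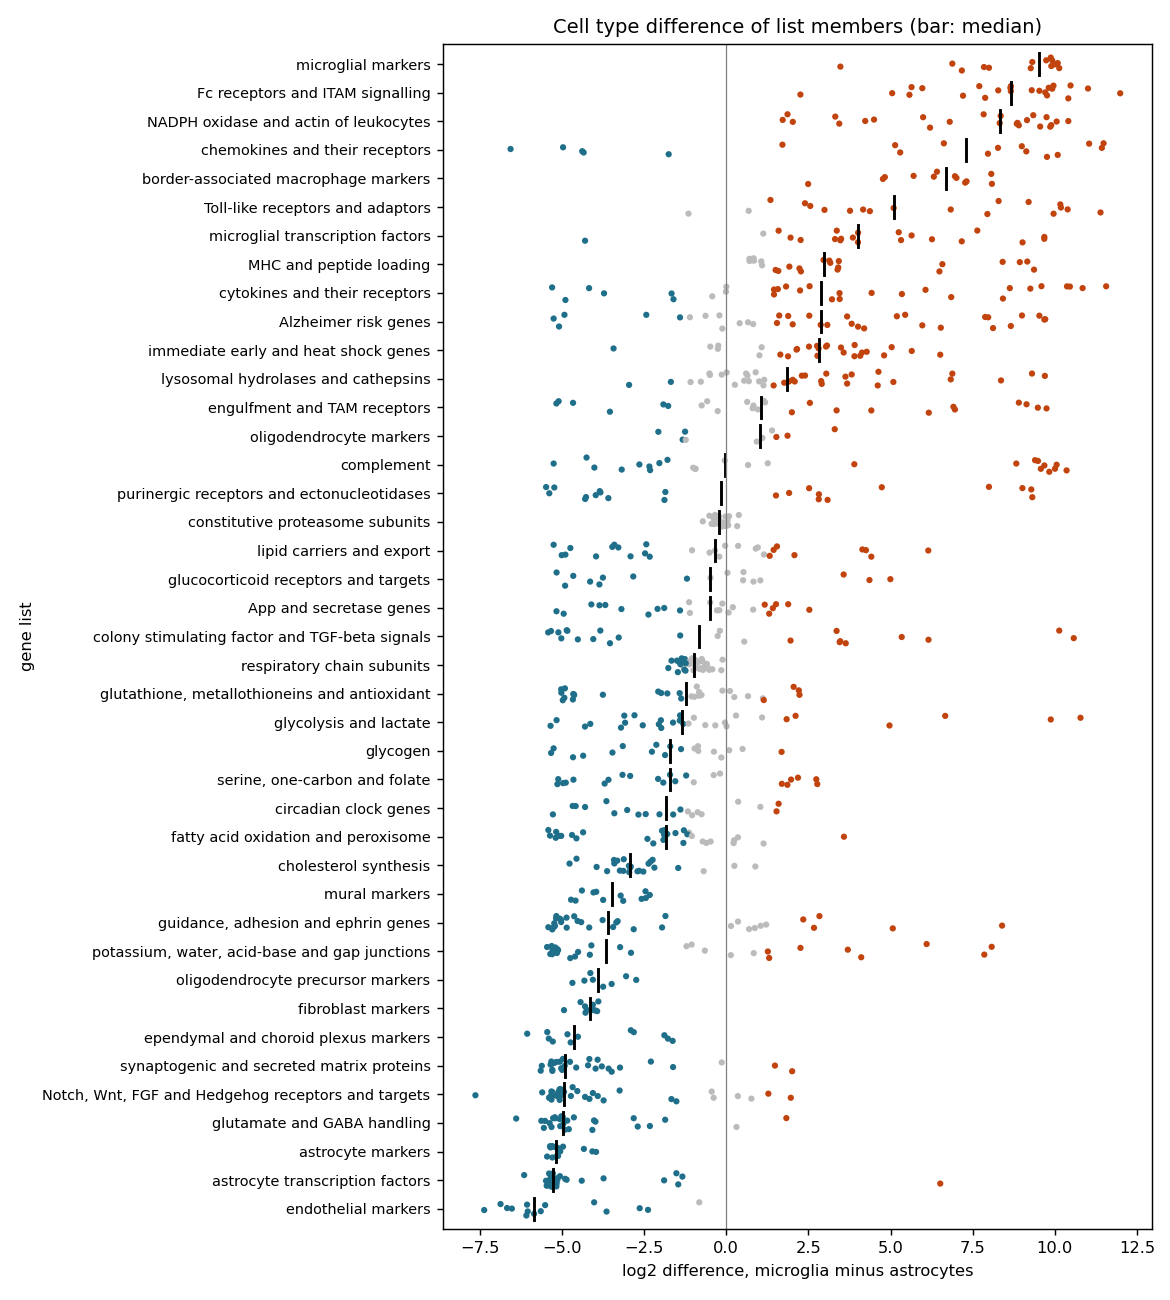
Log2 difference, microglia minus astrocytes (x axis), of each tested member of 41 gene lists (rows, ordered by median), with members called beyond 2-fold in orange for microglia and blue for astrocytes, others in grey, and the median as a black bar. Fc receptor, leukocyte actin and microglial marker lists lie fully to the right, astrocyte marker, endothelial and ependymal lists to the left, and the purinergic and complement lists hold members on both sides.

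Some related genes were divided between the cells. Of 35 pairs of related genes, 15 had members more than 2-fold higher in opposite types. The pairs were chosen with results of these data known, so the count describes this list of pairs alone. Besides the pairs above these included the engulfment adaptors Elmo1 (6.91) and Elmo2 (-1.77), and the exchange factors Vav1 (10.41) and Vav3 (-2.90). The sodium pump chains Atp1b3 and Atp1b2 differed by 1.27 and -5.15, the potassium channels Kcnk13 and Kcnk1 by 6.10 and -5.35, and the prostaglandin enzymes Ptgs1 and Ptges by 4.59 and -5.14. Among repressors, Bhlhe41 was at 265, 275.38, 292 and 323 CPM in microglia and 115, 79.9, 81.8 and 111 CPM in astrocytes (log2 difference 1.59, SE 0.13, adjusted p = 0.000108). Bhlhe40 was at 9.44, 14.5, 11.3 and 9.54 CPM in microglia and 271, 198, 190.1 and 222 CPM in astrocytes (log2 difference -4.30, SE 0.21, adjusted p = 2.1e-05). The factors Klf2, which flow also induces in endothelium, and Klf15 differed by 3.31 and -4.51, and Klf2 in astrocyte replicates 2 and 3 was 199 and 96.6 CPM against 25.8 and 24.4 CPM in 1 and 4. Reads could be split between near-identical stretches of related genes in a way that no source used here gives.

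Immediate early, clock and hormone-response genes also differed. Of 27 immediate early and heat shock genes tested, 21 were more than 2-fold higher in microglia and 1 in astrocytes. Zfp36, which destabilises cytokine transcripts, was at 1220.3, 1355, 1214 and 1074 CPM in microglia and 15.7, 40.0, 32.6 and 16.3 CPM in astrocytes (log2 difference 5.65, SE 0.29, adjusted p = 2.4e-05). The phosphatase Dusp1 was at 1010.0, 1244, 1181 and 914 CPM in microglia and 77.6, 153, 80.1 and 71.0 CPM in astrocytes (log2 difference 3.57, SE 0.19, adjusted p = 2.6e-05). Ier5 was at 665 to 830.0 CPM in microglia and 32.3 to 53.9 CPM in astrocytes (log2 difference 4.13, SE 0.18, adjusted p = 1.4e-05). The exception was Hspb1, a small heat shock protein, at 0.910, 5.23, 2.98 and 0.655 CPM in microglia and 6.23, 70.6, 31.3 and 6.36 CPM in astrocytes (log2 difference -3.43, SE 0.18, adjusted p = 2.6e-05), highest in replicates 2 and 3 of both types. Both types came from the same dissociated brains, and the part of dissociation and sorting in these levels was not tested. Of 20 clock genes, 12 were more than 2-fold higher in astrocytes and 2 in microglia, with Cry2 at 16.3 to 19.3 CPM in microglia and 152 to 226 CPM in astrocytes (log2 difference -3.41, SE 0.15, adjusted p = 1.6e-05). Per2 was at 9.505 to 15.9 CPM in microglia and 36.4 to 65.3 CPM in astrocytes (log2 difference -2.03, SE 0.09, adjusted p = 1.4e-05). Hlf and Rora differed by -2.45 and -3.01. Among 17 glucocorticoid receptor and target genes, 8 were more than 2-fold higher in astrocytes and 3 in microglia, against 27.2% and 18.7% of all genes tested. Fkbp5, a chaperone induced by glucocorticoids, was at 89.7, 73.2, 73.3 and 63.2 CPM in microglia and 3.87, 4.31, 3.87 and 2.44 CPM in astrocytes (log2 difference 4.36, SE 0.14, adjusted p = 8e-06), while Klf9 was at 9.36 to 14.3 CPM in microglia and 163 to 214 CPM in astrocytes (log2 difference -4.14, SE 0.18, adjusted p = 1.4e-05). Hif3a was at 1.95 to 4.44 CPM in microglia and 23.6 to 94.6 CPM in astrocytes (log2 difference -3.86, SE 0.19, adjusted p = 2.3e-05).

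Of 35 genes linked to Alzheimer disease risk, 23 were more than 2-fold higher in microglia and 5 in astrocytes, against 18.7% and 27.2% of all genes tested. Bin1, a membrane-curving protein, was at 633, 676, 667 and 697 CPM in microglia and 18.1, 18.4, 17.98 and 18.5 CPM in astrocytes (log2 difference 5.19, SE 0.11, adjusted p = 5e-06). Plcg2, a phospholipase of immune receptors, was at 340.3 to 365 CPM in microglia and 4.30 to 7.00 CPM in astrocytes (log2 difference 5.97, SE 0.19, adjusted p = 7e-06). Among 25 App and secretase genes, 10 were more than 2-fold higher in astrocytes and 6 in microglia. Adam17, an alpha-secretase, was at 301 to 352 CPM in microglia and 53.6 to 59.0 CPM in astrocytes (log2 difference 2.53, SE 0.10, adjusted p = 1.1e-05). Aplp2, a relative of App, was at 109.8 to 145 CPM in microglia and 458 to 597 CPM in astrocytes (log2 difference -2.09, SE 0.11, adjusted p = 2.3e-05). App itself, named as the gene altered in the other genotype, was at 274, 305, 300.0 and 311 CPM in microglia and 200.1, 564, 524 and 182 CPM in astrocytes (log2 difference -0.12, adjusted p = 0.751). It was lower in microglia in mice 2 and 3 alone (-0.79) and higher in mice 1 and 4 alone (0.55), and its 2 high astrocyte libraries were those with the most endothelial transcripts. The part of endothelial RNA in that difference was not tested.

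The size of the cell type difference was then compared with that in the 5 APP mice. The test of the difference itself, an interaction over all 18 libraries, called 2901 of 15550 genes (18.7%). Of the 6478 genes more than 2-fold apart in WT, 1497 had another difference in APP, 1227 smaller and 270 larger, and 87 turned direction. The 6478 genes were called in the same WT libraries that enter the interaction, which favours smaller differences in APP. No conclusion is drawn from that split. The count rested on WT replicate 1, the only WT female: without it 515 genes were called, and without APP replicate 1, the only APP male, 1821. On a scaling over all 18 libraries, which shifts the WT sums given above, the microglial markers summed to 255 to 272 CPM in WT astrocytes and 354 to 408 CPM in APP astrocytes, and to 41196.5 to 49815 and 30870.3 to 36668 CPM in the microglia. On that scaling the border-associated macrophage markers in microglia summed to 1842 to 2139 CPM in WT and 401 to 703 CPM in APP. Values for the genes named here are in the closing section, and the part of these marker shifts in them was not tested.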

How the data were processed

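RNA had been sequenced from sorted microglia and astrocytes. Per the labels' protocols the cells went through enzymatic dissociation, a Percoll step and a DAPI-gated sort, and total RNA was taken. The deposited raw tables hold counts per gene symbol, 24421 symbols in each, and their names say that outliers were left out. Per the submitters' processing notes the tools and build include STAR 2.7.3a and mm10, with Trimmomatic 0.39, limma 3.46.0, edgeR 3.32.1, SAMtools 1.9 and FastQC 0.11.8. No source used here gives the counting tool, annotation or strand setting, so antisense and overlapping genes cannot be separated. The authors' normalized tables were not used, since each cell type had been normalized on its own.

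Counts were fitted in edgeR 4.0.16 (R 4.3.3) with TMM scaling, a filter by cell type (minimum count 10, total 15), the mouse as a block, the quasi-likelihood test and its test against a 2-fold change, with Benjamini-Hochberg adjustment at 0.05 over all genes tested. The pairing comes from the mouse number in the names, since each animal gave both libraries. Deviations of same-mouse libraries from their group means correlated with r = 0.282, 0.139, 0.247 and 0.164 for replicates 1 to 4. Libraries of different mice gave r = -0.284 to 0.209, with 0.140 for microglia 2 with astrocytes 3 and 0.209 for microglia 3 with astrocytes 2, so these values also follow the split of mice 1 and 4 from 2 and 3. The interaction with genotype was fitted on the 18 libraries and included a term for cell type by sex. Procedures were tested on simulated data. Intervals are exact Poisson intervals at 95% and cover counting error only. Where a gene had 1 to 3 counts over the 4 astrocyte libraries, the ratio of pooled levels is given in place of a fitted value. Alternatives were other scalings, filters, designs, limma 3.58.1 (voom) and DESeq2 1.42.0, and mice left out.

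The text names the defining markers, C3, the largest differences at 100 CPM or more, the smallest at 500 CPM or more, the called members with the lowest adjusted p in each list (at most 4), and members of pairs called in opposite directions. Exceptions, chosen after their values were seen, are App, Atf3, Csf1, Cst3, Glul, Slc1a2, Sox9, Sparc, Spi1, Tlr3 and the promoter genes C1qc, Ctss and Inpp5d. Some genes that the rule takes are not reported here. The comparison, the 45 gene lists (953 genes) and the pairs were chosen with earlier results of these data known. Promoters and coordinates are from RefSeq on GRCm38.p6, in which 13463 of the genes tested were found.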

Additional observations from a re-analysis of the deposited data

Results flagged for a closer look

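The cell type difference was of another size in APP mice for 73 of the 167 genes named in the text and tested in the interaction with genotype (edgeR, adjusted p under 0.05). Values below are the log2 difference between the cell types in APP minus that in WT. Of the 48 genes higher in WT microglia, 45 were closer together in APP and 3 further apart. Of the 25 genes with a negative difference in WT, 23 had a positive value here and 2 a negative one. Most named genes were chosen by their differences in the same WT libraries that enter this test. Such a choice favours smaller differences in APP, so no conclusion is drawn from these counts. All 73 had the same sign without WT replicate 1, 38 were called then, and 71 were called without the mouse as a block. Marker sums in this part are on a scaling over all 18 libraries. Microglial marker levels in astrocyte libraries were higher in APP (354 to 408 CPM) than in WT (255 to 272 CPM), as the report gives, and their part in these values was not tested.

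Among receptors and identity genes of microglia the values were Tmem119 (-2.68), P2ry12 (-1.444), Csf1r (-2.813), Tgfbr1 (-0.9875), Cx3cr1 (-2.919), P2ry6 (-1.967), Entpd1 (-1.195), Trem2 (-2.592), Tyrobp (-2.504), Csf2rb (-3.031), Il21r (-3.26), Havcr2 (-2.366), C3ar1 (-2.488) and C5ar1 (-1.526). Among their transcription factors they were Spi1 (-3.089), Irf8 (-1.953) and Ikzf1 (-2.737). For innate sensing, cytokines and their signalling they were Tlr7 (-4.147), Tlr9 (-3.403), Unc93b1 (-1.067), Tifab (-3.951), Il1a (-2.679), Ccl3 (-2.571), Btk (-3.769), Vav1 (-3.112), Plcg2 (-0.8501), Inpp5d (-2.072), Ncf1 (-2.113), Dock2 (-2.572) and Elmo1 (-2.816). Complement, lysosome and antigen presentation gave C1qa (-2.877), C1qc (-2.656), Ctss (-2.571), Cd68 (-1.26), H2-Aa (-2.345) and Cd74 (-2.04). Sugar uptake, transport, matrix and stress genes gave Hk2 (-0.7751), Hk3 (-2.918), Slc2a5 (-2.956), Abca9 (-1.943), Sparc (-0.7241), Ier5 (-0.7191) and Fkbp5 (-0.9076). The border-associated macrophage marker Mrc1 (-2.328) and the chemokine receptor Ccr2 (-5.423) also had negative values. The summed border-associated macrophage markers in microglia were 1842 to 2139 CPM in WT and 401 to 703 CPM in APP. Ccr2 and Btk had 1 count each over the 4 WT astrocyte libraries, so their values are no bounds, and without WT replicate 1 their adjusted p was 0.119 and 0.323 (edgeR). The 3 further apart in APP were Bhlhe41 (1.099), Csf2ra (1.628) and Gusb (1.235).

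Among astrocyte genes, lipid and sterol genes gave Apoe (3.804), Fdps (1.71), Hsd17b7 (1.806) and Lss (0.8393). Energy and amino acid metabolism gave Slc2a1 (0.9785), Slc16a1 (0.6975), Acadl (0.82), Hadhb (0.7524), Psat1 (2.993), Psph (0.8473), Atp5o (1.109), Uqcrfs1 (1.13), Cox5a (1.456) and Mt1 (1.935). Signalling and regulatory genes gave Tgfb2 (1.718), Il1r1 (1.931), Adora1 (2.256), Elmo2 (1.013), Bhlhe40 (4.185), Rora (1.122), Csf1 (4.314) and Aplp2 (2.258). The endothelial gene Flt1 had 3.152, beside endothelial markers in astrocytes of 545 to 3955 CPM in WT and 2973 to 4677 CPM in APP. The 2 with a negative value were Hlf (-1.253) and Adgrg1 (-0.7675). Csf1 and Adgrg1 did not differ between the cell types in WT. For Csf1, Il1r1, Apoe and Aplp2 the value is larger in size than the WT difference and of opposite sign.

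One library stood far from the other 3 in 19 of 424 groups of 4 (Dixon's test at 95%), where chance flags about 1 in 20. In microglia these were Zbtb20 in replicate 4 (28.92 CPM), Il1b in replicate 3 (37.45 CPM), Kcnj16 and Klf9 in replicate 2 (16.28 and 14.31 CPM), Psmb5 in replicate 4 (19.37 CPM), Pdgfb in replicate 1 (337.4 CPM), the summed cholesterol synthesis genes in replicate 1 (538.8 CPM) and the summed erythroid markers in replicate 3 (21.64 CPM). In astrocytes they were Cx3cr1 and Havcr2 in replicate 1 (3.538 and 0.6177 CPM), Dusp1 in replicate 2 (153.2 CPM) and Psmb5 in replicate 4 (35.21 CPM). At 4 counts or fewer in the library lay C5ar1 in replicate 3 (0.1581 CPM), and Il1rl1 and Ccr2 in replicate 3 (0.0395 CPM each). So did Osm in replicate 4 (0 CPM), Tnf in replicate 4 (0.0978 CPM), and Btk and Cd200r1 in replicate 2 (0.0449 and 0.1796 CPM).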

How the results depend on the processing

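The count of genes that differed stayed between 9481 and 12635 over the alternatives, and that beyond 2-fold between 5224 and 7475, all within 1.5 times the values given. Leaving out 1 mouse gave 6180 to 6373 genes beyond 2-fold. Of the 6478 genes called beyond 2-fold, 0 turned direction under any alternative that tests that size (edgeR and limma voom), and 6009 to 6467 were called again, except with a minimum of 50 counts in 4 libraries, where 5268 were tested and 5181 called. Without the mouse as a block, 6459 genes were called beyond 2-fold and 11196 differed. The comparison with APP called 3328 genes without the block and 3640 without the sex term, against 2901. Leaving out 1 mouse gave 515 to 2825 genes there, with 515 without WT replicate 1 and 1821 without APP replicate 1.

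Of 3006 combinations of a named gene and a setting, 3001 had the same call, and the same direction wherever the gene was called. The 4 genes with exceptions were App (-0.79 in mice 2 and 3 alone and 0.5466, reversed, in mice 1 and 4 alone), Csf1 (-0.53 in mice 1 and 4 alone), Hspa8 (0.41 in mice 2 and 3 alone) and Qk (0.20 with limma voom). Some values changed sign without a call. Adgrg1 (0.17) and Csf1 (0.15) were positive in mice 2 and 3 alone and negative over all 4 mice. Hspa8 was -0.18 in mice 1 and 4 alone and 0.12 over all 4 mice. The cause was not tested. Of 84 named astrocyte genes that differed, 75 had a larger difference in mice 1 and 4 than in mice 2 and 3, and for 57 the 2 values lay over 1.5-fold apart. Of 77 microglial ones these counts were 55 and 37, and 0 of all 161 turned direction. The median of the complement list changed sign with the minimum of 50 counts (2.54), with no filter (0.0016), without replicate 1 (0.16) and in mice 2 and 3 alone (0.06). Scaling by library totals alone shifted the median over all genes by -0.12. Depth limits the microglial genes with 3 astrocyte counts or fewer, for which the report gives a counting interval. Their fitted values in the plot of pairs and in the comparison with APP are no bounds.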
